A study of Rattus norvegicus with 6 samples.

Results

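Voltage-gated calcium channels and the genes that store and clear calcium were examined in the rat retina, in diabetic rats with and without Compound Danshen Dripping Pill (CDDP). The 34 genes were listed by name, as the pore-forming, beta, alpha2delta and gamma subunits of the channels, the ryanodine and IP3 receptors that release stored calcium, and the SERCA and PMCA pumps that remove it. A gene was kept when a probe row of the array carried its symbol alone, and 32 of the 34 genes were measured in this way, out of 18166 genes in all. The exceptions were Cacna1s, which has no probe row named for it here, and Cacng8, whose row is shared with the microRNA gene Mir935. Each of the 32 genes had 1 such row, so no choice between rows was needed.

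The HCDDP group and the diabetic group were male SD rats of the same diabetic model, with 3 arrays in each. All of them were fed a high fat diet for 4 weeks and then injected with streptozotocin at 30 mg/kg, which destroys insulin-producing cells. The HCDDP rats then received CDDP through a stomach tube for 12 weeks at a dose of 0.4 g/kg/d, and the diabetic rats had saline in its place. CDDP holds Danshen (Salvia miltiorrhiza), notoginseng and borneol, so no value here belongs to Danshen alone. The labels give the treatment as Danshen and the age as 17 weeks, while the study describes rats that were 5 weeks old before the diet began. A non-diabetic group and the lower dose were not analysed here, so a difference says nothing about a return toward a healthy retina. No source says that 1 array stands for 1 rat, so the p-values cover only the spread among these 6 preparations, part of which may be technical.

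Voltage-gated calcium channels open when a neuron or muscle cell is depolarized. In the retina, the Cav1 channels of photoreceptors and bipolar cells feed the steady release of glutamate at ribbon synapses. A pore-forming subunit of the Cav1 or Cav2 class is joined by a beta subunit inside the cell and an alpha2delta subunit outside it, while the Cav3 channels, which open at weak depolarization, can work without them. Most proteins of the gamma family bind AMPA-type glutamate receptors and bring them to synapses, and they are therefore called TARPs. Inside the cell, SERCA pumps fill the endoplasmic reticulum with calcium, ryanodine and IP3 receptors let it out, and PMCA pumps expel it through the plasma membrane.

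The values are log2 signals as deposited, 1 per array, and a difference is the mean of the HCDDP arrays minus that of the diabetic arrays. A gene was called by the threshold of the study's methods, a p below 0.05 before adjustment together with a fold change above 1.5, applied to limma, and p-values were also adjusted over all 18166 genes. Probes differ in brightness, so signals of different probe rows are not read as relative amounts of RNA. Rows are set beside each other only through a median signal, or to choose the rows and genes shown. The marker check below, which uses the array median, is coarse for the same reason. Of all genes, 3.2% passed this threshold, 0.925% higher and 2.28% lower in the HCDDP group, and 1 gene (0.0055%), which is not among the 32, passed after adjustment. An unadjusted p under 0.05 was reached by 6.05%, and HCDDP and diabetic arrays were fully apart, without overlap, for 10.7%, with 6.43% higher and 4.3% lower. Both arrays numbered 3 lay apart from the other 4 on the first principal component, at −34.6 and −30.6, against −5.91 to −0.654 in the other HCDDP arrays and 28.2 to 43.6 in the other diabetic arrays.

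The tissue label was checked against marker genes of the retina and of tissue near it. All 6 measured rod markers lay above the array median in every array, with a mean log2 signal of 11.01 to 11.43. All 10 measured markers of skeletal muscle did as well, as did all 8 of the corneal and scleral stroma and all 5 measured of the lens, which are tissues outside the retina. The muscle markers overlapped between the groups, with a mean log2 signal of 9.63 to 10.14 in the HCDDP arrays and 9.70 to 10.11 in the diabetic arrays. The mean of the stromal list did not overlap between the groups, at 9.70 to 10.03 against 10.30 to 10.44. Neither did that of the 9 intestinal markers, at 4.32 to 4.43 against 5.15 to 5.75, none of them above the array median in every array. Gene by gene, 5 of the 8 stromal and 7 of the 9 intestinal markers did not overlap, all of these lower, beside 10.7% of all genes. The part that these tissues have in the values below was not tested unless a measurement is given. In whole tissue, fewer cells of a type and less RNA per cell cannot be told apart.

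Among the 32 genes, 1 passed the threshold, the TARP gene Cacng3, which was lower in the HCDDP group. That is 3.12% of the genes measured, close to the 3.2% of all genes, and 0 of the 32 passed after adjustment by limma. An unadjusted p under 0.05 was reached by 2 of the 32, Cacna1e higher and Cacng3 lower, beside 2.54% and 3.51% of all genes. The methods' t-test called 0 of the 32, beside 1.08% of all genes. There was no overlap between HCDDP and diabetic arrays for 3 of the 32, or 9.38%, which is near the 10.7% of all genes, and all 3 of these, Cacna1e, Cacna1g and Atp2a3, were higher in the HCDDP group. The median difference of the 32 genes was 0.03 log2 units, beside −0.01 for all genes, and the differences ran from −0.70 for Cacng3 to 0.40 for Cacna1e. For 18 of the 32, the 95% interval of the difference lay inside a 1.5-fold change in both directions, and for the other 14 it reached past that size on at least 1 side.

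**Figure D1:**
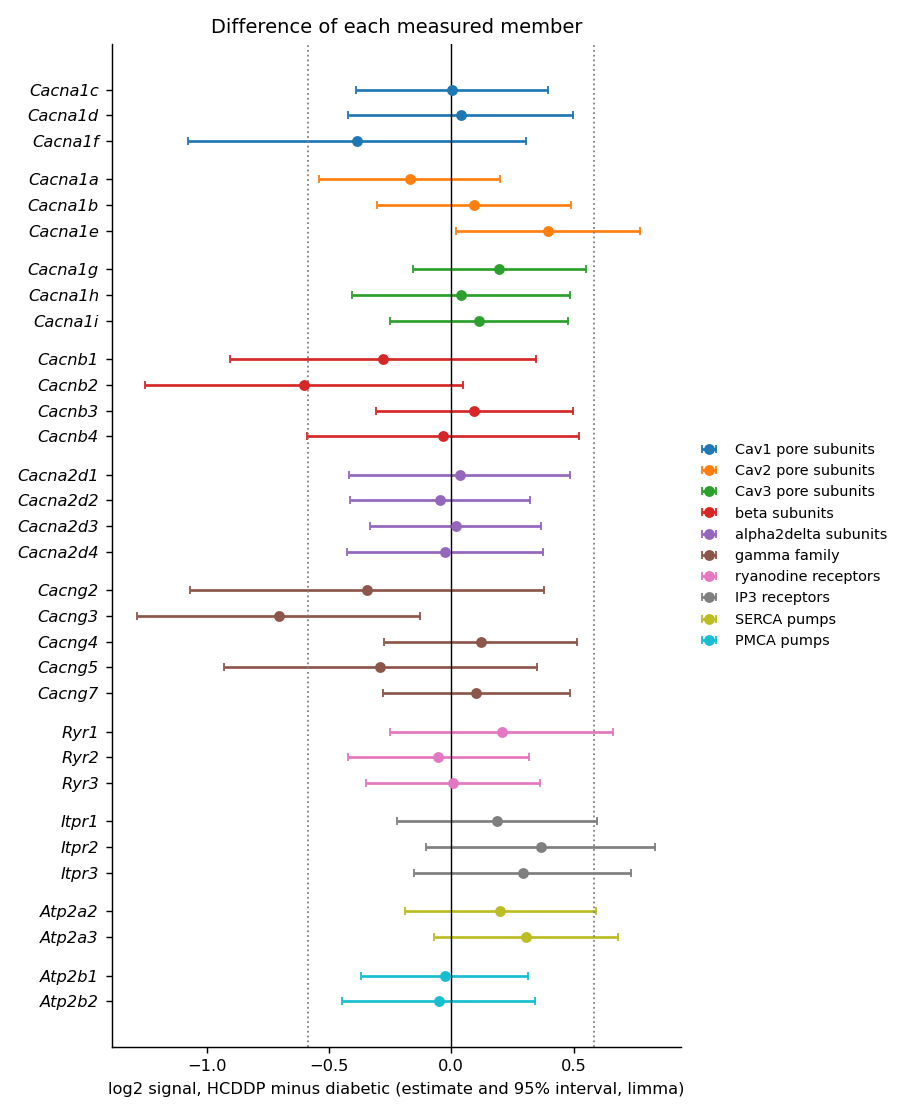
Difference of each of the 32 measured genes, HCDDP minus diabetic, in log2 signal, with limma's estimate as a point and its 95% interval as a bar. Colours mark the 10 families, dotted lines mark a 1.5-fold change, and the 2 genes whose intervals leave out 0 are Cacng3 (−1.28 to −0.13) and Cacna1e (0.02 to 0.77).

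The stretch of genome before the start of a gene is given for the genes that the results turn on, Cacng3, Cacnb2 and Cacna1e, so that the regulatory letters can be read beside the values. The sequences are RefSeq's, from the GRCr8 build, and cover the 250 bases before the annotated start. Capitals mark 2 motifs searched on both strands, the GC box GGGCGG and the 9 letters TTCAGCACC that open RE1, the element bound by REST, a repressor of neuronal genes. These 9 letters were searched for after the Cacng3 sequence had been read. The Cacng3 window lies on chromosome 1 at chr1:186632312-186632561, plus strand.
Cacng3: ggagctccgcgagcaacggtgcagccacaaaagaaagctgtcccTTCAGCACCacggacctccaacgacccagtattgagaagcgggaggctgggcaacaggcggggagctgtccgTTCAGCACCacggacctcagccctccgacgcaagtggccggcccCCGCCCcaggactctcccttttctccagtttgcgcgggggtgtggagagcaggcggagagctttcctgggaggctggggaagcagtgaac
Cacnb2 has 2 annotated starts, and the windows lie on chromosome 17 at chr17:82472965-82473214 and chr17:82596542-82596791, both on the plus strand.
Cacnb2, window 1: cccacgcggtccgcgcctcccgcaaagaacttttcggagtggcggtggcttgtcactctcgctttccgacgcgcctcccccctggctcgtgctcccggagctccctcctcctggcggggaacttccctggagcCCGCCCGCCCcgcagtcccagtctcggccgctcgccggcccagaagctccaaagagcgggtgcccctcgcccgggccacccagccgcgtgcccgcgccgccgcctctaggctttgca
Cacnb2, window 2: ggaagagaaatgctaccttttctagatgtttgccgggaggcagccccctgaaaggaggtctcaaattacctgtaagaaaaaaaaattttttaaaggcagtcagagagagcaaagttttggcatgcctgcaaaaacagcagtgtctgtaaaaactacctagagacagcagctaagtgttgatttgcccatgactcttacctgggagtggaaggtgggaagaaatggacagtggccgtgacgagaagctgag
The Cacna1e window lies on chromosome 13 at chr13:69444811-69445060, minus strand.
Cacna1e: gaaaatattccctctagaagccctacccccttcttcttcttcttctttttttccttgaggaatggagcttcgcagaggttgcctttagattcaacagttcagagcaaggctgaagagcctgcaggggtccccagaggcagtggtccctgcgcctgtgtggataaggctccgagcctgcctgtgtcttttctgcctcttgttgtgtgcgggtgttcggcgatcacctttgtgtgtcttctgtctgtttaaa

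The Cacng3 window holds the RE1 opening 2 times, from base −206 to −198 and from base −134 to −126 before the start, each time as part of the same 18-base stretch, TTCAGCACCACGGACCTC. Of 33469 promoter windows of the same length, 102, or 0.305%, hold these 9 letters at all, and 1, that of Cacng3, holds them 2 or more times. The letters were chosen with the Cacng3 window in view, so these counts cannot set Cacng3 apart from other genes. A RefSeq window was found for 26 of the 34 listed genes, with 30 windows in all. Among these genes Cacng3 was the 1 with the RE1 opening. A GC box stood in 22 of the 30 windows, from 19 genes, beside 30.5% of all windows. The 1st Cacnb2 window has 73.2% G and C and 2 GC boxes that overlap, and the 2nd has 45.6% and none, against a median of 51.2% over all windows. The Cacna1e window holds neither motif. TATAAA was found in 2 of the 30 windows, 1 of Cacna1s and 1 of Cacng2, beside 12.9% of all windows. The cyclic AMP element TGACGTCA was found in none of the 30, beside 1.59% of all windows. A match describes the letters and shows no binding.

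The gamma family held the 1 called gene and the widest spread among the families. Cacng3, a TARP of neurons, had log2 signals of 7.24, 7.05 and 6.90 in HCDDP arrays 1, 2 and 3, and of 8.03, 8.06 and 7.20 in diabetic arrays 1, 2 and 3. Diabetic arrays 1 and 2 were high, and diabetic array 3 lay just below HCDDP array 1, so that the groups overlapped by a single array. The difference was −0.70 with a standard error of 0.25, a 1.63-fold lower signal, at an unadjusted p of 0.0227 and an adjusted p of 0.782 from limma. The exact permutation test, two-sided over 20 possible assignments, gave a p of 0.2, where 0.10 is the smallest p that 3 arrays against 3 allow. Within same-numbered pairs, HCDDP was always lower, by 0.79, 1.01 and 0.31, as it was for 3 of the 32 genes and 20% of all genes, while it was always higher for 6 of the 32 and 17.6% of all genes. With the replicate number as a block, the unadjusted p became 0.00659 and the adjusted p 0.299.

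The call of Cacng3 depended on single arrays. Leaving out HCDDP array 2 (−0.70) or 3 (−0.62), or diabetic array 1 (−0.57) or 2 (−0.56), ended the call, as did the methods' t-test. It was kept without HCDDP array 1 (−0.79). Without diabetic array 3 the difference was −0.99 and the adjusted p from limma was 0.0403, in a fit where 1984 genes, or 10.9%, passed the threshold. Over all alternatives run, the difference stayed negative, from −0.99 to −0.56.

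**Figure D2:**
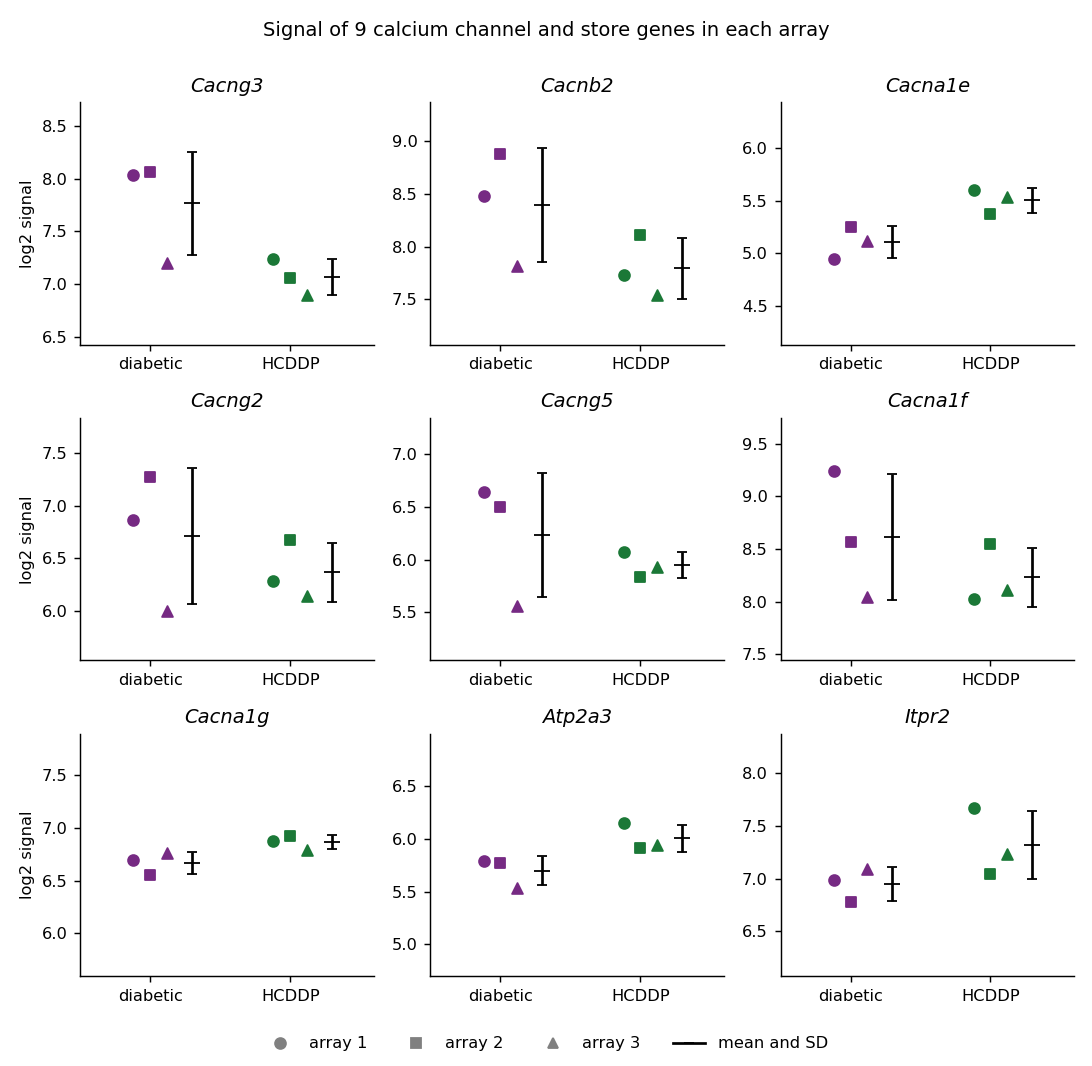
Log2 signal of 9 genes in each array, with circles, squares and triangles for arrays 1, 2 and 3 of a group, and bars for the mean and SD of the 3 arrays. All panels span the same range of log2 units, and in Cacng3, Cacnb2, Cacng2 and Cacng5 diabetic array 3 lies well below diabetic arrays 1 and 2.

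In 2 other TARP genes diabetic arrays 1 and 2 were likewise well above diabetic array 3, without a call. Cacng2 encodes stargazin, the first known TARP. Its signals were 6.28, 6.67 and 6.14 in the HCDDP arrays and 6.86, 7.27 and 6.003 in the diabetic arrays, a difference of −0.34 (standard error 0.32, adjusted p = 0.828 from limma). Cacng5, a TARP that acts on a narrower set of AMPA receptors, had 6.08, 5.84 and 5.93 against 6.64, 6.50 and 5.56, a difference of −0.29 (standard error 0.28, adjusted p = 0.838). In both genes diabetic array 3 was the lowest of all 6 arrays and diabetic arrays 1 and 2 were the 2 highest. The other TARP genes had positive differences. Cacng4, prominent in the young brain, had a difference of 0.12, with an interval of −0.27 to 0.51. Cacng7, a TARP best known from the cerebellum, had 8.26, 8.36 and 8.18 against 8.16, 8.34 and 7.98, a difference of 0.10 with an interval of −0.28 to 0.48.

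The gamma genes lie partly side by side in the rat genome. By the gene order of RefSeq's GRCr8 annotation, Cacng6, Cacng8 and Cacng7 follow one another on chromosome 1, and Cacng1, Cacng4 and Cacng5 on chromosome 10. Cacng6, a gamma subunit outside the TARPs, was listed with the other calcium-handling genes. It passed the threshold, with signals of 5.03, 4.98 and 5.38 in the HCDDP arrays and 6.49, 6.40 and 5.39 in the diabetic arrays, a difference of −0.97 (standard error 0.30, adjusted p = 0.782 from limma). All 3 HCDDP arrays lay below all 3 diabetic arrays, though HCDDP array 3 and diabetic array 3 differed by little. Its call was lost by the methods' t-test. Cacng1, the gamma subunit of the skeletal muscle channel, had a difference of −0.41 (standard error 0.35) and overlapping groups. The row that Cacng8 shares with Mir935 read 5.62, 5.68 and 6.01 against 5.13, 5.39 and 5.93. Among these neighbours, Cacng6 was the 1 that passed the threshold.

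Beta subunits carry the pore to the membrane and set how it opens. Cacnb2, the beta subunit of the photoreceptor ribbon synapse, had signals of 7.73, 8.11 and 7.54 in the HCDDP arrays and 8.48, 8.88 and 7.82 in the diabetic arrays. Diabetic array 3 lay between the HCDDP arrays, and the other diabetic arrays lay above all of them. The difference was −0.60 with a standard error of 0.28, a 1.52-fold lower signal that missed the threshold on its p (0.0651 unadjusted and 0.782 adjusted, from limma). HCDDP was lower in all 3 same-numbered pairs, by 0.76, 0.78 and 0.28. With the replicate number as a block, Cacnb2 passed the threshold as well (unadjusted p of 0.00879, adjusted p = 0.306 from limma), so that 2 of the 32 genes, or 6.25%, were called, both lower, beside 4.62% of all genes, with 1.15% higher and 3.47% lower. It also passed with array weights (−0.76), when HCDDP array 2 (−0.76), diabetic array 3 (−0.89) or both arrays numbered 3 (−0.77) were left out.

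The remaining beta subunits gave smaller differences. Cacnb1, the beta subunit of the skeletal muscle channel, had 7.11, 6.91 and 6.36 against 7.41, 7.21 and 6.59. Its HCDDP array was lower in each pair, by 0.31, 0.30 and 0.23, while the groups overlapped widely, and the difference of −0.28 (standard error 0.27) was not called. Cacnb3 and Cacnb4, beta subunits of neurons, had differences of 0.09 and −0.03, and the sign of each turned in at least 1 alternative.

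Among the Cav1 pore subunits, Cacna1f, the pore of the photoreceptor synapse, varied most. Its signals were 8.02, 8.55 and 8.11 in the HCDDP arrays and 9.23, 8.57 and 8.04 in the diabetic arrays. Diabetic array 1 stood alone at the top, and the other 5 arrays lay from 8.02 to 8.57. The difference of −0.38 (standard error 0.30, adjusted p = 0.805 from limma) shrank to −0.07 without diabetic array 1 and grew to −0.67, past the threshold, without diabetic array 3. Cacna1c, the Cav1 pore of heart and smooth muscle, and Cacna1d, a Cav1 pore of neurons and hair cells, had differences of 0.00 and 0.04, with intervals of −0.39 to 0.40 and −0.42 to 0.50.

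The Cav2 channels drive transmitter release at conventional synapses. Cacna1e, which forms the R-type channel, was the gene with the largest positive difference among the 32. Its signals were 5.60, 5.37 and 5.54 in the HCDDP arrays and 4.95, 5.25 and 5.12 in the diabetic arrays. All HCDDP arrays lay above all diabetic arrays, with the second arrays of the groups closest to each other. The difference was 0.40 with a standard error of 0.16, a 1.32-fold higher signal that fell short of the fold change, at an unadjusted p of 0.042 and an adjusted p of 0.782 from limma. The exact permutation p was 0.10, the smallest possible. The mean signal of Cacna1e lies below the median of all genes, so the setting of genes above the median signal leaves it out. Over the other 15 alternatives the difference stayed between 0.30 and 0.47. Cacna1a, the pore of the P/Q-type channel, had 6.43, 6.69 and 6.69 against 6.81, 6.83 and 6.66, a difference of −0.17 (standard error 0.16). Cacna1b, that of the N-type channel, had 0.09, and both genes overlapped between the groups.

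All 3 Cav3 genes had a positive difference, each small. Cacna1g had 6.88, 6.92 and 6.79 in the HCDDP arrays against 6.70, 6.55 and 6.76 in the diabetic arrays. Its groups did not overlap, though the arrays numbered 3 differed by only 0.03, and the difference was 0.20 (standard error 0.15, adjusted p = 0.805 from limma). Cacna1h and Cacna1i had differences of 0.04 and 0.11 and overlapped between the groups.

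The alpha2delta subunits raise the amount of channel at the membrane. The differences of Cacna2d1, Cacna2d2, Cacna2d3 and Cacna2d4 were 0.04, −0.05, 0.02 and −0.03, and all 4 intervals lay inside a 1.5-fold change. Cacna2d4, the alpha2delta subunit of photoreceptors, had 8.18, 8.59 and 8.17 against 8.38, 8.31 and 8.32. The diabetic arrays lay close together and within the range of the HCDDP arrays. Thus Cacna1f, Cacnb2 and Cacna2d4, the 3 subunit genes of the photoreceptor channel, had differences of −0.38, −0.60 and −0.03, none of which was called, and whether these 3 differ from each other was not tested.

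**Figure D3:**
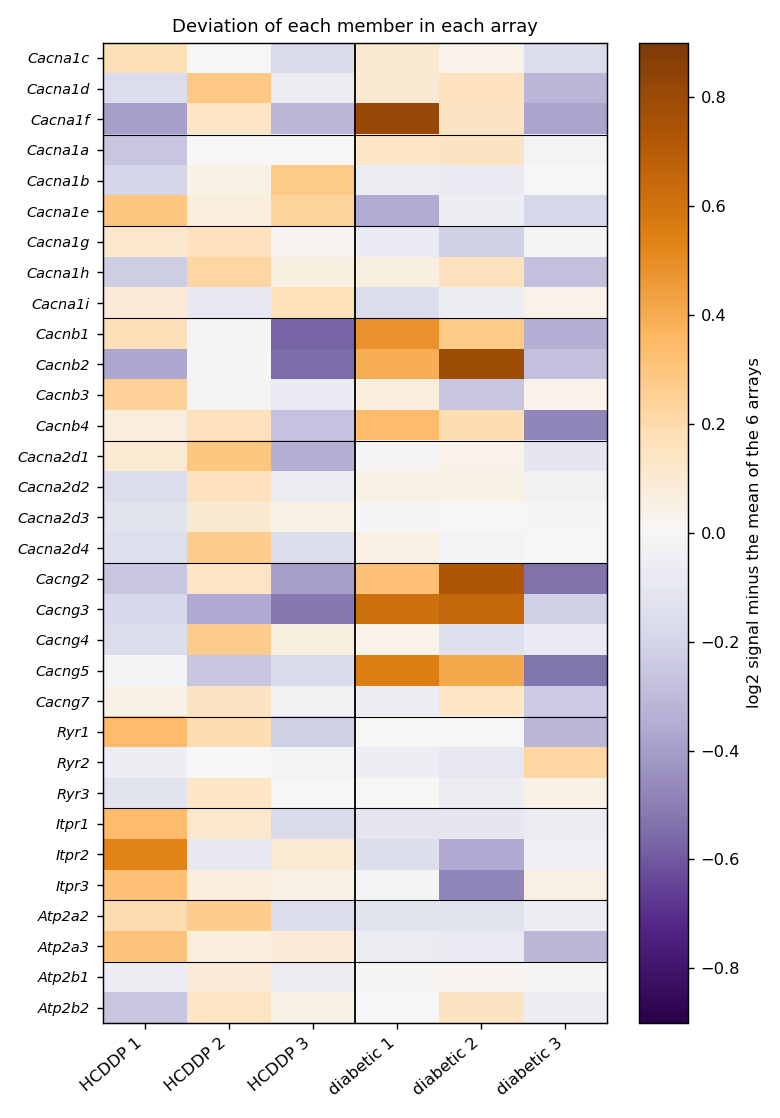
Log2 signal of each of the 32 genes in each array minus the mean of that gene over the 6 arrays, ordered by family. Diabetic arrays 1 and 2 are high in Cacnb1, Cacnb2, Cacng2, Cacng3 and Cacng5, in which both arrays numbered 3 lie below the mean of the gene.

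In the stores and pumps, 7 of the 10 genes had a positive difference, with a median of 0.19 log2 units, and none was called. Among the 22 channel genes measured, 12 had a positive difference, with a median of 0.01, and 48.4% of all genes did. All 3 IP3 receptor genes, whose products release calcium downstream of phospholipase C, were positive. Itpr2 had signals of 7.67, 7.05 and 7.23 in the HCDDP arrays and 6.99, 6.78 and 7.10 in the diabetic arrays. HCDDP array 1 was high, and HCDDP array 2 lay below diabetic array 3. The difference was 0.37 (standard error 0.20, adjusted p = 0.782 from limma), and that of Itpr3 was 0.29 (standard error 0.19). Itpr1, the main IP3 receptor of neurons, had 7.95, 7.72 and 7.44 against 7.50, 7.51 and 7.54, a difference of 0.19 (standard error 0.18) with HCDDP array 3 below all diabetic arrays.

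The SERCA gene Atp2a3 was the store gene whose groups did not overlap. Its signals were 6.16, 5.92 and 5.94 in the HCDDP arrays and 5.79, 5.77 and 5.54 in the diabetic arrays. The difference was 0.31 (standard error 0.16, unadjusted p of 0.0977 and adjusted p = 0.782 from limma). It stayed between 0.23 and 0.35 over 15 alternatives. The setting of genes above the median signal leaves Atp2a3 out, since its mean signal lies below that median. Atp2a2, the SERCA pump found in most cells, had 9.79, 9.86 and 9.44 against 9.48, 9.47 and 9.54. HCDDP arrays 1 and 2 were the highest and HCDDP array 3 the lowest of the 6, for a difference of 0.20 (standard error 0.17).

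Ryanodine receptors release calcium in response to calcium itself or to the muscle channel. Ryr1, the form of skeletal muscle, had 8.73, 8.57 and 8.17 against 8.39, 8.39 and 8.07, a difference of 0.21 (standard error 0.20). Both arrays numbered 3 were the lowest of their groups. They were so in the list of skeletal muscle markers, whose median deviation was −0.27 in each of them and 0.07 to 0.21 in the other 4. Over all genes the median deviation was also lowest in these arrays within each group, but smaller in size, at −0.044 (HCDDP) and −0.0577 (diabetic). In the Müller glia list it was lowest in them as well, at −0.30 and −0.09. In the lists of cones, bipolar cells and amacrine cells, HCDDP array 1 was the lowest of its group instead, at −0.42, −0.30 and −0.18. Diabetic array 3 was the lowest of its group there too. The share of the Ryr1 signal that comes from muscle was not tested. Ryr2 and Ryr3, the forms of heart and brain, had differences of −0.05 and 0.01. The PMCA genes Atp2b1 and Atp2b2 had differences of −0.03 and −0.05. Atp2b1 had 9.46, 9.60 and 9.45 against 9.53, 9.54 and 9.53, with an interval of −0.37 to 0.31.

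The genes that handle calcium beside these were taken from 8 lists of 90 genes, of which 79 were measured. Passing the threshold were 2 of the 79, both lower, Cacng6 and Hpca, and 0 were higher, beside 3.2% of all genes in either direction and 2.28% lower. With the replicate number as a block 3 of the 79 were called, all lower, beside 4.62% of all genes. The groups did not overlap for 10 of the 79, beside 10.7% of all genes. The median difference of the 79 genes was −0.07, beside −0.01 for all genes, with 33 positive and 46 negative. Hpca encodes hippocalcin, a calcium sensor of neurons. Its signals were 6.86, 6.95 and 6.60 in the HCDDP arrays and 8.48, 8.19 and 7.36 in the diabetic arrays, with no overlap, and the difference was −1.21 (standard error 0.28, adjusted p = 0.782 from limma). Its call was kept in all 16 alternatives run, with differences from −1.53 to −0.98. Ppp3cb, a catalytic subunit of the calcium-activated phosphatase calcineurin, was the largest of the positive ones, at 9.58, 9.63 and 9.60 against 8.88, 9.18 and 9.04. Every HCDDP array lay above every diabetic array, and the difference of 0.57 (standard error 0.16, unadjusted p of 0.00626 and adjusted p = 0.782 from limma) fell just short of the fold change. Camkk2, a kinase that calcium and calmodulin switch on, had 0.39 (standard error 0.16), also without overlap.

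By list, 0 of 7 genes of store-operated calcium entry, 0 of 9 sodium-calcium exchangers, 0 of 14 store and junction proteins, 0 of 7 genes of mitochondrial calcium uptake, 0 of 12 calcium-dependent kinases and phosphatases and 0 of 12 genes that anchor channels at the release site passed the threshold. Among the calcium buffers and sensors it was 1 of 13, and among the other pumps and channel subunits 1 of 5, beside 3.2% of all genes. The blocked fit added 1 store and junction gene, Trdn, which encodes triadin, a protein of the muscle calcium release unit. Trdn had 7.96, 7.79 and 7.27 in the HCDDP arrays against 8.78, 9.39 and 7.48 in the diabetic arrays, a difference of −0.87 with overlapping groups. The medians of the lists ran from −0.16 for the other pumps and channel subunits to 0.08 for mitochondrial uptake. Mcu, the pore of the mitochondrial uniporter, had no overlap at a difference of 0.25 (standard error 0.15), and Stim2, a sensor of store calcium, none at −0.20 (standard error 0.16). Groups also did not overlap for Cabp2 (0.41) and Cabp1 (−0.17), calcium-binding proteins of synapses, for Ppp3r1 (0.33), the regulatory subunit of calcineurin, and for Camk2d (−0.26), a calmodulin-dependent kinase. None of these 6 passed the threshold.

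**Figure D4:**
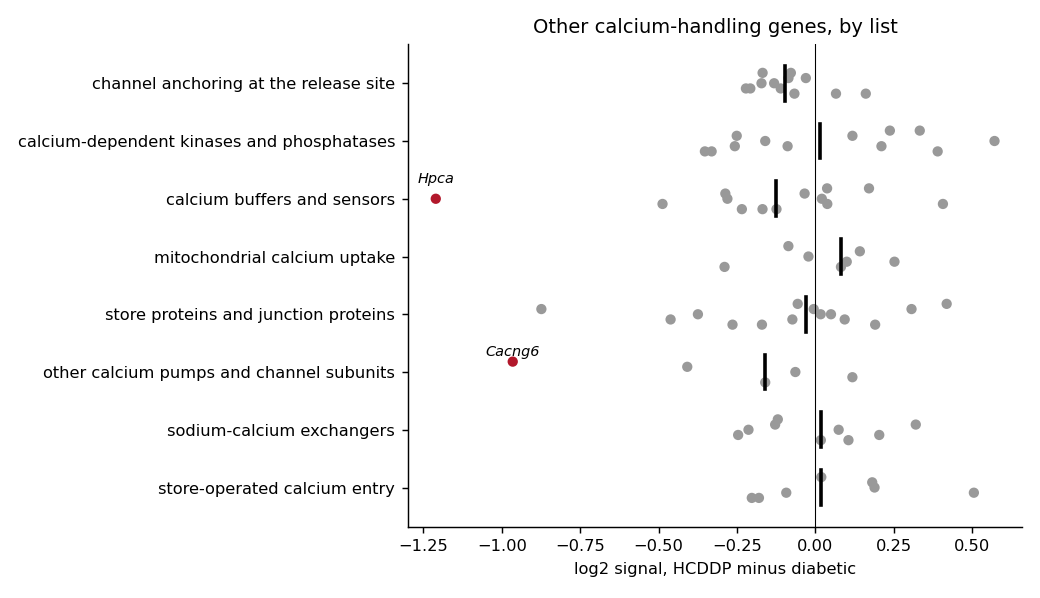
Difference of 79 other calcium-handling genes, HCDDP minus diabetic, in log2 signal, with 1 point for each gene and a black bar for the median of each of 8 lists. Red points passed the threshold, which are Hpca (−1.21) and Cacng6 (−0.97).

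Markers of retinal cell types were set beside the genes that lay lower. Pcp2, a marker of bipolar cells, passed the threshold, with 7.55, 7.60 and 6.77 in the HCDDP arrays against 8.89, 8.999 and 7.59 in the diabetic arrays, a difference of −1.18 (standard error 0.39, adjusted p = 0.782 from limma). Both arrays numbered 3 were the lowest of their groups, as in Cacng3. Of 7 bipolar markers 1 was called, beside 3.2% of all genes, with a median of −0.12 and 5 negative. The 2 positive ones were Vsx1 (0.10) and Lhx4 (0.16). The glutamate receptor gene Grm6 had −0.52 without overlap (unadjusted p of 0.0442 and adjusted p = 0.782 from limma). Trpm1, the channel behind that receptor, had −0.03 with overlap. Of 8 cone markers 0 were called, with a median of −0.40 and all 8 negative, and the blocked fit called 1 of them lower, the opsin gene Opn1mw (−0.77), beside 4.62% of all genes. Of 9 ganglion cell markers 0 were called, with a median of −0.18 and all 9 negative. None was called among 6 rod markers (median −0.30, 5 negative), 7 of Müller glia (−0.33, 5 negative) and 8 of amacrine cells (−0.23, 7 negative). Nor was any among 6 of horizontal cells, whose median was 0.09 with 4 positive. Among the 6 rod markers, 3 did not overlap between the groups, beside 10.7% of all genes. These were Gnat1 (−0.34) and Sag (−0.44), which were lower, and Nrl (0.44), which was higher. No overlap was also found, all lower, for 2 of 8 amacrine, 1 of 8 cone, 1 of 7 Müller glia and 1 of 7 bipolar markers. Of 6 horizontal cell markers it was 1, which was higher, and of 9 ganglion cell markers 0. The mean log2 signal of the bipolar list was 7.04 to 7.33 in the HCDDP arrays and 7.18 to 7.54 in the diabetic arrays, that of the cone list 6.26 to 6.67 and 6.48 to 6.98, and that of the rod list 11.01 to 11.31 and 11.12 to 11.43. Their part in the lower signals of Cacng3, Cacnb2 and Cacna1f was not tested.

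Both arrays numbered 3 held a narrower range of signals over all genes. From the 10th to the 90th percentile they spanned 4.48 (HCDDP) and 4.45 (diabetic) log2 units, against 4.92 to 5.19 in the other arrays. The array weights were also lowest for them, at 0.648 and 0.338, against 0.866 to 2.20. The part of this in the values of single genes was not tested. The array that mattered most for these genes was diabetic array 3. Without diabetic array 3, 5 of the 32 genes, or 15.6%, passed the threshold, namely Cacng3, Cacnb2, Cacng2, Cacng5 and Cacna1f, all lower. Of all genes 10.9% passed in either direction, and 1491 of these 1984 were lower. Cacng2 was then at −0.70, Cacng5 at −0.63, Cacnb2 at −0.89 and Cacna1f at −0.67. Without both arrays numbered 3, 3 passed, Cacng3 (−0.90), Cacnb2 (−0.77) and Cacng5 (−0.62). Of all genes 8.16% passed in either direction, and 1124 of these 1482 were lower. There was then no overlap for 17 of the 32, beside 46.7% of all genes, with 2 arrays against 2. The other 27 genes were not called in any alternative run, and 18 of the 32 kept the sign of their difference throughout, among them the 3 IP3 receptors, both SERCA pumps and the 5 genes just named.

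**Figure D5:**
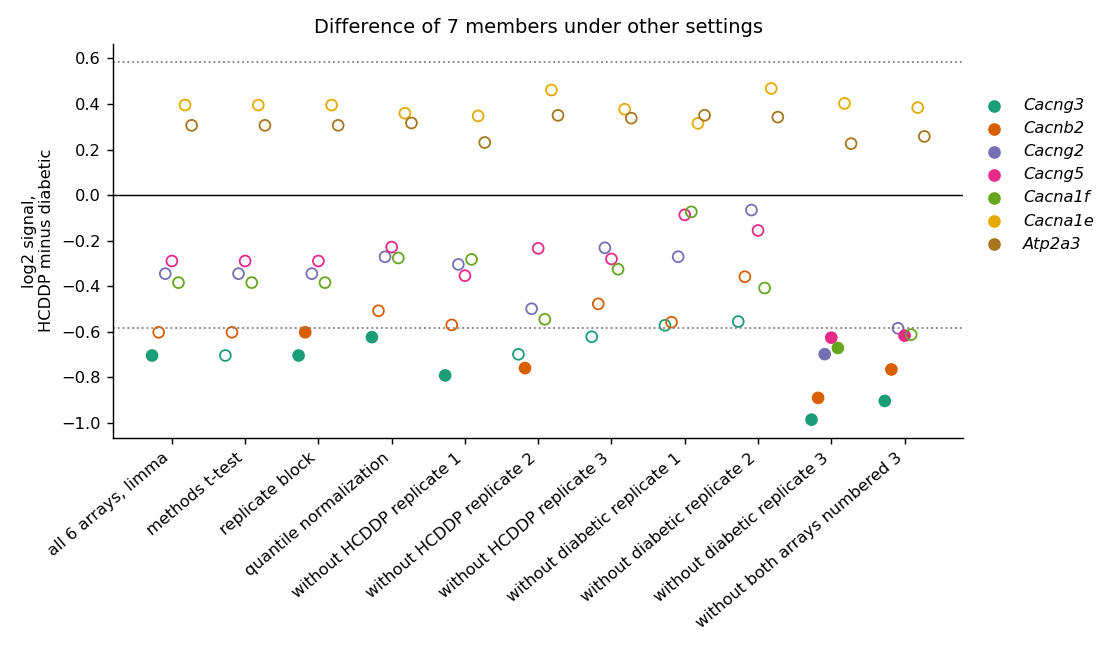
Difference in log2 signal, HCDDP minus diabetic, of 7 genes under limma with all 6 arrays and under 10 other settings. Filled points are calls and dotted lines mark a 1.5-fold change, and the lowest values of Cacng3 (−0.99) and Cacnb2 (−0.89) are those without diabetic array 3.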

How the data were processed

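Retinal RNA was hybridized to Affymetrix Rat Gene 2.0 ST arrays, with 3 arrays each for the HCDDP and the diabetic group. The authors used Expression Console Software 1.41 on the scans, and the deposited table has a log2 signal for each array in 36685 probe rows. Which background correction, normalization and summarisation were used is not given in the sources at hand, so their effect on weak signals is unknown. Labels gave the groups and the replicate numbers, and the methods of the study gave dose, strain and diet.

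Probe rows were named with the platform's annotation, in which 18511 rows carry exactly 1 symbol, 575 several and 17599 none, and symbols were updated by gene identifier for 18394 rows. A gene with several rows was read from its brightest one (18166 genes). Weak signals were kept. The groups were compared with limma 3.58.1 in R 4.3.3 (lmFit and eBayes at their defaults), with Benjamini-Hochberg adjustment over all genes, and with an exact permutation test for single genes. Precision is limited by the number of arrays.

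The members, the gene lists, the tests and the alternatives were chosen with earlier results of these data known. All listed members are named, with every array given for those past the threshold, those without overlap and the gene of the highest mean signal in each family. Of each other calcium list, at most 4 genes past the threshold or without overlap are named. Cacng1, Trdn, the retinal markers, and the arrays of Cacnb1, Cacng2, Cacng5 and Itpr2 were chosen after their values were seen. The alternatives were the methods' t-test, trend and robust moderation, quantile normalization, array weights, genes above the median signal, median centring, all probe rows, the dimmest row per gene, a fold change over 2, a block for the replicate number, each array left out, and both arrays numbered 3 left out. The labels do not say that numbers pair the arrays. After group means were taken away, same-numbered arrays correlated across genes at 0.274, 0.292 and 0.445. Across the 32 genes alone, the values were 0.105, 0.390 and 0.387. Deviations within a group cancel out for every gene. Where same-numbered arrays covary positively, arrays of different numbers must therefore covary negatively on average, although their correlations were not computed. These values alone do not show that the numbers pair the arrays. The blocked fit is given as an alternative where it changed a call of a gene in the families or lists. Array correlations ran from 0.954 to 0.982, and no pair held identical values. Scripts were tested on simulated data. Promoter windows are RefSeq's (GRCr8). Figures were drawn with matplotlib 3.10.9.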

Additional observations from a re-analysis of the deposited data

How the results depend on the processing

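With the settings changed 1 at a time, the count of all genes past the threshold was 582 with all arrays, 196 by the methods' t-test, 1362 with array weights, 381 among genes above the median signal, 1898 over all probe rows, 90 at a fold change over 2, and 1482 without both arrays numbered 3. It ran from 323 to 1984 when single arrays were left out. The count at an adjusted p under 0.05, 1 at first, was 0 by the t-test, 3 with array weights, 0 among genes above the median signal, 0 over all probe rows, 7 without both arrays numbered 3, and 0 to 311 with single arrays left out. Genes without overlap, 1950 at first, became 1039 among genes above the median signal, 4180 over all probe rows, 8479 without both arrays numbered 3, and 2883 to 6808 with single arrays left out, where fewer arrays overlap less often by construction. Of the calcium genes, the count past the threshold, 1 at first, was 0 by the t-test, 0 at a fold change over 2, 2 with array weights, 2 with the replicate number as a block, 3 without both arrays numbered 3, and 0 to 5 with single arrays left out. The count without overlap, 3 at first, was 6 after quantile normalization, 1 among genes above the median signal (23 of the 32 genes), 17 without both arrays numbered 3 and 3 to 13 with single arrays left out. After quantile normalization the count without overlap also rose over all 18166 genes, from 1950 to 2669. The replicate block changed no other call among the 32 genes, and its count of 840 genes stayed within 1.5 times of 582. The median difference of the 32 genes ran from −0.0602 (without HCDDP array 2) to 0.0647 with single arrays left out and to 0.08 after quantile normalization. The balance of genes called lower, 414 of 582, was 870 of 1898 over all probe rows and 108 of 196 by the t-test, 381 of 579 after quantile normalization and 386 of 570 after median centring. Without HCDDP array 2, the 1 calcium gene past the threshold was Cacnb2. Causes were not tested.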

Other observations

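Of the 95 genes with the 9-letter RE1 opening in a RefSeq promoter window, 60 were measured. Their median difference between the HCDDP and diabetic groups was 0.05 log2 units, with 26 of the 60 negative, beside −0.01 for all genes. The threshold was passed by 3 of them, all lower (Cacng3, Fads1 and Zfp688), or 5%, beside 2.28% of all genes called lower. The letters were chosen after the sequence and the values of Cacng3 had been seen, so Cacng3 is in the 5% by construction. That share therefore cannot be read against the share of all genes, and the list was given no test.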
